A study of Mus musculus with 11 samples.

Results

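The genes described here are 8 enzymes of cholesterol synthesis, Acat2, Hmgcs1, Idi1, Fdft1, Sqle, Lss, Cyp51 and Nsdhl, picked by name from the 55421 genes in each count table. All 8 matched 1 row each, and all 8 passed the filter on low counts that left 13375 genes. They were read in ribosome-bound RNA of Purkinje cells, the output neurons of the cerebellar cortex, from mouse cerebella collected on postnatal day 56. In all 11 animals Cre recombinase under the Pcp2 promoter, which is active in Purkinje cells, switches on an HA-tagged ribosomal protein Rpl22 (Pcp2Cre;Rpl22HA/HA), and an antibody against the tag pulls the ribosomes out of whole cerebellum. The 4 knockouts also carried floxed Tie2 alleles on both chromosomes (Pcp2Cre;Tie2flox/flox;Rpl22HA/HA), so that Tie2, the angiopoietin receptor encoded by Tek, should be lost in the cells that express the Cre. The 7 controls carried no floxed Tie2 allele. Batches are labelled 1 to 3: F371, M374 and control M379 form the first, knockout M390 and control M386 the second, and knockout M456 with the other 5 controls the third. Each library has its own animal tag, and nothing more is said of the replicates.

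Cholesterol is built from acetyl-CoA. Acat2 and Hmgcs1 act at the start of the mevalonate route, Idi1 isomerises the isoprenoid building block, Fdft1 joins the chains into squalene, Sqle and Lss turn squalene into the first sterol, lanosterol, and Cyp51 and Nsdhl strip methyl groups from it. When membrane sterol is low, the sterol regulatory element binding proteins (SREBPs) move to the nucleus and raise transcription of most of these genes together. Brain cholesterol is made locally, because lipoproteins of the blood do not cross into the tissue, and glia are a main source for adult neurons.

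The libraries held 2.58 to 4.20 M reads in genes in the knockouts and 4.09 to 5.14 M in the controls. Tek had 21 reads in the knockouts together and 93 in the controls, with 0 to 14 and 0 to 40 per library, too few to check the labels, and a gene total cannot show which exons were lost. Purkinje cell markers summed to 8583 to 11289.5 CPM in the knockouts and 8954 to 10816 CPM in the controls (CPM, read counts scaled to a common library total), so the labelled cell type was present. Granule cell markers summed to 631 to 1786 CPM in knockouts and 485 to 960 CPM in controls, and 9 of 14 tested were higher in the knockouts. For Bergmann glia and astrocytes the sums were 586 to 1549 and 463 to 724 CPM with 8 of 14 markers higher, and for oligodendrocytes 448 to 1107 and 381 to 841 CPM with 3 of 15 higher. Microglia markers summed to 33.1 to 129 and 37.6 to 62.6 CPM (3 of 9 higher), and those of endothelial and mural cells to 33.4 to 141 and 24.8 to 154 CPM (1 of 9 higher). None of these 5 lists had a lower marker, and 0 of the 90 markers listed for all 6 cell types had 0 reads in all libraries. Of 24 Purkinje markers 4 were higher and 6 lower (edgeR quasi-likelihood test, adjusted p under 0.05). Beside all these counts, 10.9% of all 13375 tested genes were higher and 13.4% lower, 24.4% in either direction.

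The enzymes did not move as a block between knockout and control. Hmgcs1 and Cyp51 rose, by 1.52-fold and 1.88-fold. Nsdhl fell to 0.221 and Acat2 to 0.621 of the control level. Sqle, Fdft1, Idi1 and Lss did not pass the test. The count of 4 in 8 called stands beside 24.4% of all 13375 genes called (10.9% higher and 13.4% lower), and the median log2 fold change was -0.21 over the 8 genes and -0.02 over all tested genes. Each call is an adjusted p under 0.05 in edgeR's quasi-likelihood model, which held batch and genotype and was fitted to all tested genes. In bulk RNA of this kind, fewer cells of a type and less RNA per cell cannot be told apart.

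**Figure D1:**
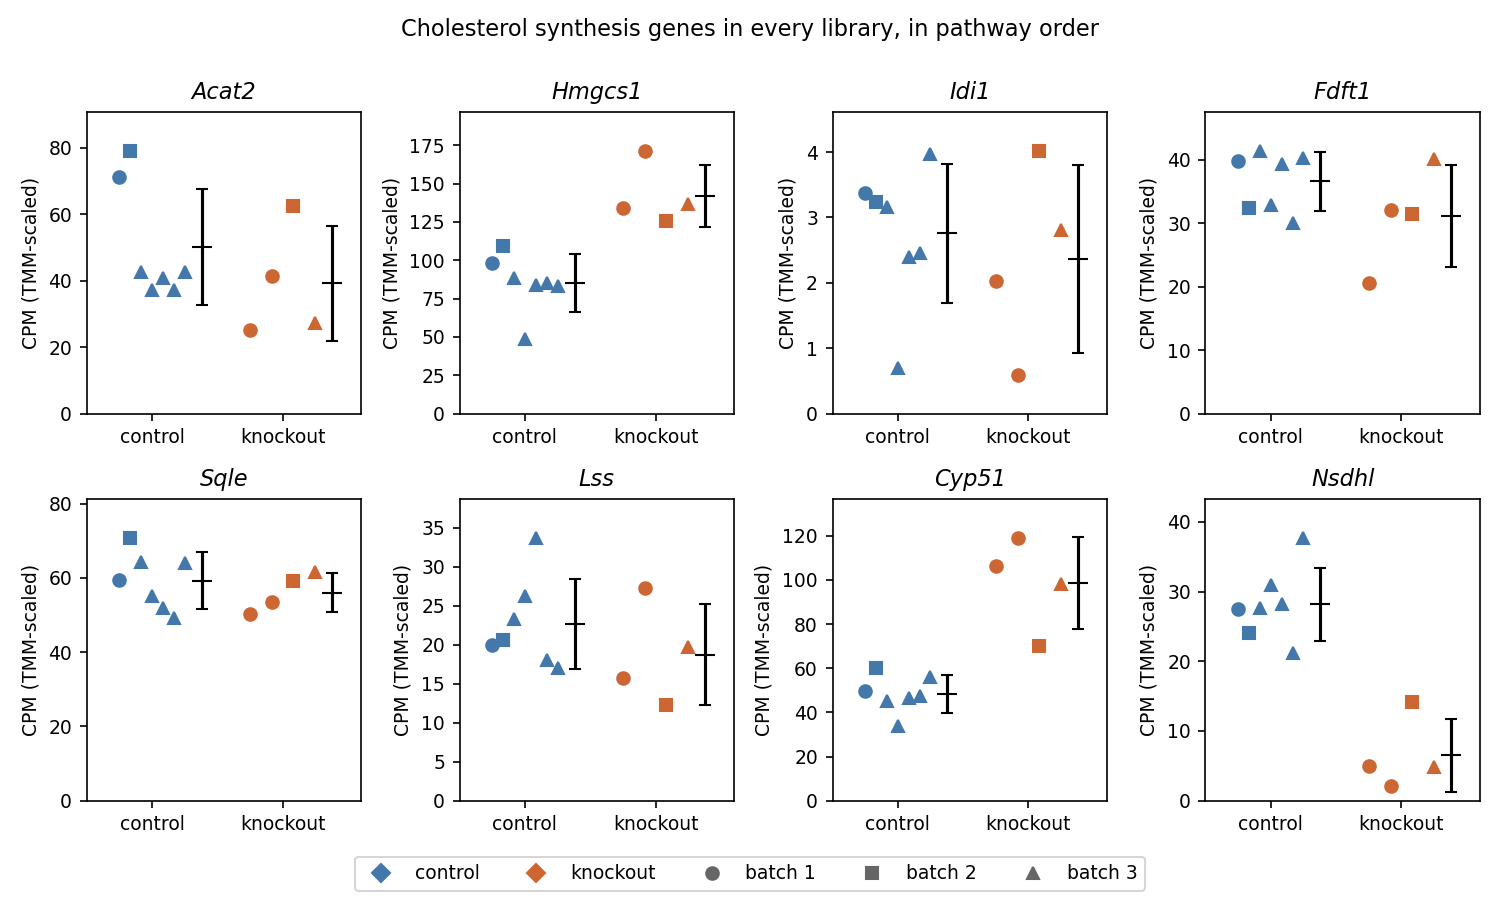
Level of each of the 8 genes in every library, in CPM on axes that start at 0. Points are libraries, coloured by group and shaped by batch, and black marks with bars are the group mean and SD (7 controls, 4 knockouts). All knockout points lie above all control points for Hmgcs1 and Cyp51 and below them for Nsdhl.

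The promoters of the 4 called genes are printed because SREBPs and their partner factors act on such sequences. The windows run from 250 bases before to 50 bases after the gene start, on the gene's strand, from RefSeq on GRCm38.p6. Promoter windows were available for 6 of the 8 genes, not for Sqle and Fdft1. They lie at chr13:119690101-119690400 (plus strand) for Hmgcs1, chr5:4104648-4104947 (minus strand) for Cyp51, chrX:72918271-72918570 (plus strand) for Nsdhl and chr17:12960676-12960975 (minus strand) for Acat2. Capitals mark matches on either strand to a sterol regulatory element (TCACNCCAC), a CCAAT box (CCAAT, bound by NF-Y) or a GC box (GGGCGG, bound by Sp1).
Hmgcs1: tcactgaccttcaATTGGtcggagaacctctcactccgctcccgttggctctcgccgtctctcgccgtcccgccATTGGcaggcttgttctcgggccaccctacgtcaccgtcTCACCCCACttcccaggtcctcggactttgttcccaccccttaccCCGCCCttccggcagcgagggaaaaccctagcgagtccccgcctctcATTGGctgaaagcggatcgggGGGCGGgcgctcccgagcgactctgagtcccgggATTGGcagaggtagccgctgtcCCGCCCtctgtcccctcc
Cyp51: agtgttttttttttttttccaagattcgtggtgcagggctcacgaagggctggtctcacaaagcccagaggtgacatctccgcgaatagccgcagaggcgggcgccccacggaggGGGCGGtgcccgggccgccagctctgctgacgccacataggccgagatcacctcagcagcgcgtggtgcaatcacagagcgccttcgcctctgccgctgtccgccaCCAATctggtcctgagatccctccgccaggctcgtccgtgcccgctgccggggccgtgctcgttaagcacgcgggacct
Nsdhl: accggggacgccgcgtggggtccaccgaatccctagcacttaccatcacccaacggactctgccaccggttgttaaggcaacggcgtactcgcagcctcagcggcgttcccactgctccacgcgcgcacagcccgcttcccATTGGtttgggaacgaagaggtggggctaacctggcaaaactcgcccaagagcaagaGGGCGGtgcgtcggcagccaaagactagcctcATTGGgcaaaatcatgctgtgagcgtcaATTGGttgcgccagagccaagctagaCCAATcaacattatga
Acat2: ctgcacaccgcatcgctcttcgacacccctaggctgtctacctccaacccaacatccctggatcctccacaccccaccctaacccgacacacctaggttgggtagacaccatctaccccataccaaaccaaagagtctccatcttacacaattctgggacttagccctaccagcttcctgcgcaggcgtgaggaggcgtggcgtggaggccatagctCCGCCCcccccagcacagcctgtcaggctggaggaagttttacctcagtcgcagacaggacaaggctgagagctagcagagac

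Among the 6 promoters, only that of Hmgcs1 held the sterol element as spelled, as TCACCCCAC starting 137 bases before the gene's first base, while 1.24% of the 32851 promoter windows in the table held one. Hmgcs1 and Nsdhl each had 4 CCAAT boxes, Idi1 had 2, Cyp51 and Lss had 1 and Acat2 had 0; 37.4% of all windows had at least 1. A GC box was found in all 6 promoters and in 35.7% of all windows. None of the matches overlapped another. A match is a description of the letters only.

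At the entry to the route, Acat2 (ENSMUSG00000023832, chr17:12943042-12960725), the cytosolic thiolase that joins acetyl-CoA units, was lower in the knockouts. The controls ran from 37.2 over a median of 42.5 to 79.1 CPM, and knockouts F371, M374, M390 and M456 were at 25.2, 41.6, 62.6 and 27.3 CPM. The groups overlapped, because control levels differed by batch: 71.3 CPM in batch 1, 79.1 CPM in batch 2 and 37.2 to 42.7 CPM in batch 3. Within each batch every knockout was below every control, with log2 ratios of -1.08, -0.33 and -0.55. Adjusted for batch, the log2 difference was -0.69 ± 0.20 (SE; adjusted p = 0.0229 in edgeR), and with no batch term it was -0.35 (edgeR adjusted p = 0.40). Its close relative Acat3, a neighbour on the same chromosome, drew 5 reads over all controls and 0 over all knockouts. The annotated gene shares 634 bases with the pseudogene Gm20591.

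Hmgcs1 (ENSMUSG00000093930, chr13:119690351-119708260), which makes HMG-CoA, was higher in every knockout than in any control. It had 134, 171, 126 and 137 CPM in F371, M374, M390 and M456, against 48.6 to 109 CPM with a median of 85.0 in the controls. The lowest control, M476, lay far below the others. On the log2 scale the difference was 0.60 ± 0.18 (SE; adjusted p = 0.0240 in edgeR), with log2 ratios of 0.63, 0.20 and 0.81 in the 3 batches.

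Idi1 (ENSMUSG00000058258, chr13:8885606-8892396) was barely detected, with 2 to 20 reads per library, or 0.594 to 4.02 CPM in knockouts and 0.698 to 3.97 CPM in controls. Its log2 fold change of -0.30 ± 0.62 had a 95% interval of -1.63 to 1.03, and differences within that interval were not detectable at these read counts. Its paralog Idi2 drew 5 reads over all controls and 0 over all knockouts.

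The 3 enzymes that make and close squalene had overlapping groups and no call. Fdft1 (ENSMUSG00000021273, chr14:63145150-63181687), squalene synthase, had 20.6, 32.1, 31.4 and 40.2 CPM in F371, M374, M390 and M456, and 30.0 to 41.4 CPM with a median of 39.3 in the controls. Its log2 fold change was -0.16 (95% interval -0.62 to 0.30, edgeR adjusted p = 0.62). The annotated gene shares 774 bases with Ctsb, a lysosomal protease gene with a mean of 410 CPM in controls that fell by 0.56 on the log2 scale, and the strand setting of the counting is not given in the sources used here. Sqle (ENSMUSG00000022351, chr15:59315092-59331193), the epoxidase that commits squalene to sterols, had 50.2, 53.4, 59.1 and 61.4 CPM in F371, M374, M390 and M456. Controls held 49.2 to 70.7 CPM of Sqle with a median of 59.5, and every knockout lay inside that range. Its log2 fold change was -0.09 (95% interval -0.43 to 0.25, edgeR adjusted p = 0.72). Lss (ENSMUSG00000033105, chr10:76531565-76557139), which closes the sterol rings, had 15.7, 27.3, 12.3 and 19.7 CPM in the knockouts and 17.1 to 33.7 CPM with a median of 20.6 in the controls. The log2 fold change of Lss was -0.26 (95% interval -0.90 to 0.38, edgeR adjusted p = 0.55), and its sign differed between batches (0.10, -0.72 and -0.26). Lss shares 11269 bases with 4930483K19Rik, a noncoding RNA gene with 0 reads in all libraries.

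Past lanosterol, Cyp51 was higher and Nsdhl lower in the knockouts, while Msmo1 and Hsd17b7, whose products act with Nsdhl (both named after their values were seen), did not pass (log2 fold changes of 0.34 ± 0.23 and 0.42 ± 0.25, edgeR adjusted p = 0.28 and 0.22). Cyp51 (ENSMUSG00000001467, chr5:4080674-4104697), the lanosterol demethylase of the cytochrome P450 family, had 107, 119, 70.2 and 98.4 CPM in F371, M374, M390 and M456. The controls had 33.7 to 60.3 CPM with a median of 47.4, below every knockout. On the log2 scale the difference was 0.91 ± 0.19 (SE; adjusted p = 0.00515 in edgeR), and the within-batch log2 ratios were 1.18, 0.22 and 1.10. Nsdhl (ENSMUSG00000031349, chrX:72918521-72958528), the dehydrogenase that acts in removal of the next methyl groups, went the other way. It had 4.93, 2.08, 14.2 and 4.82 CPM in the knockouts, from 7 to 60 reads per library, and 21.3 to 37.7 CPM with a median of 27.6 in the controls. All 4 knockouts lay below all 7 controls, and M390 of batch 2 was the nearest to them. The log2 fold change of Nsdhl was -2.18 ± 0.39 (SE, edgeR adjusted p = 0.00297), with within-batch log2 ratios of -2.80, -0.74 and -2.48.

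Of the 8 genes, 2 had all knockouts above all controls, as did 6.20% of all tested genes, and 1 had them all below, as did 6.77% of all genes (13.0% in either direction). The ratio of group means kept its sign in all 3 batches for 4 of the 8, as it did for 6484 of all 13375 tested genes. The 4 are the called genes, and the calls come from the same libraries, so the shared sign is no separate support. For those 4 the ratio was smallest in batch 2, where the single knockout was M390.

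**Figure D2:**
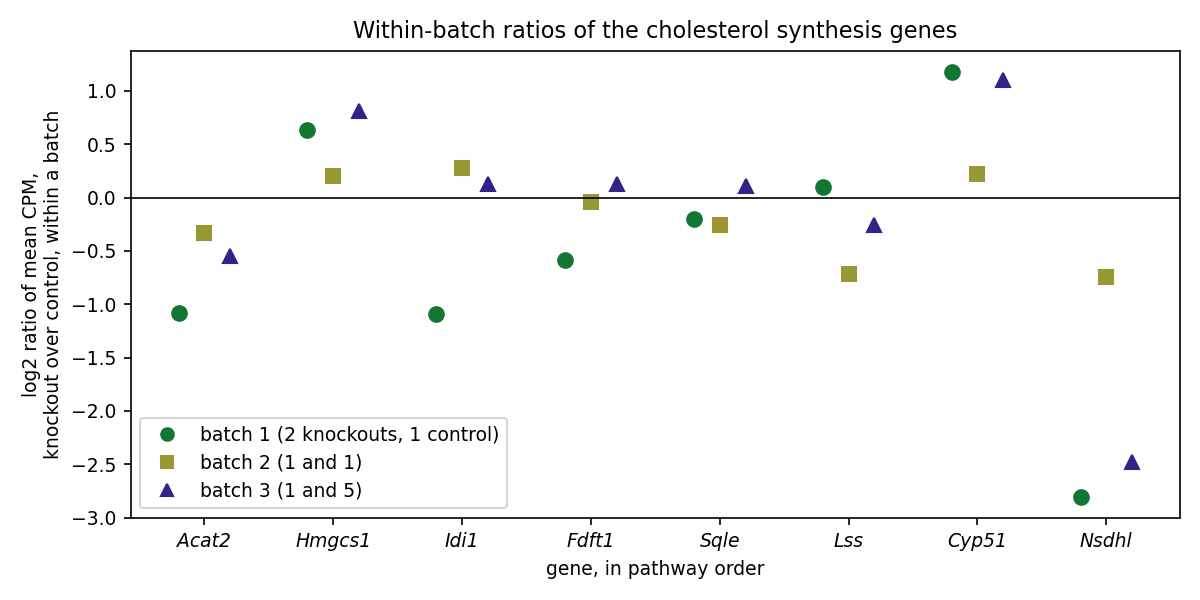
Log2 ratio of mean CPM in knockouts over controls within each batch, with 0.5 CPM added to both, for the 8 genes in pathway order; each point is 1 batch and the line at 0 means equal levels. Hmgcs1 and Cyp51 have 3 points above the line, Acat2 and Nsdhl have 3 below it, and the batch 2 point of these 4 genes lies nearest to it.

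The number of calls depended on which libraries were kept and on the model. Without control M379, the only control of batch 1, 0 of the 8 genes passed (edgeR), with log2 fold changes of 0.61 for Hmgcs1, 0.80 for Cyp51, -1.69 for Nsdhl and -0.44 for Acat2, and 3 had an unadjusted p under 0.05. Without knockout M456, the only knockout of batch 3, 1 passed, Nsdhl at -1.96 (edgeR adjusted p = 0.0488). Each of the other 9 libraries could be left out with 4 called. Without M379 or M456 the rest of that batch holds 1 group and no longer informs the comparison within batches. Calls over all genes fell too, from 3257 with all libraries to 335 without M456, so the loss was not particular to these genes.

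Knockout libraries also differed in depth and in the markers of other cells. The level of Purkinje markers over that of granule cell, astroglial and oligodendrocyte markers (difference of their mean log2 CPM, the purity score) was 3.34, 2.56, 3.67 and 2.31 in F371, M374, M390 and M456, and 3.02 to 4.07 in the controls. Within each batch every knockout had a lower score and fewer reads than every control: the control score was 4.07 in batch 1, 4.01 in batch 2 and 3.02 to 3.49 in batch 3. With the score as a covariate 0 of 13375 genes passed in edgeR (1075 had an unadjusted p under 0.05), and the log2 fold changes became 0.08 for Hmgcs1, 0.41 for Cyp51, -1.06 for Nsdhl and -0.88 for Acat2. With the library total as a covariate they were 0.54, 0.80, -1.64 and -0.67, again with 0 genes called and 1841 at an unadjusted p under 0.05. Knockout F371, with a score below that of its batch's control but inside the range of all controls, had more Hmgcs1 and Cyp51 and less Nsdhl and Acat2 than any control. Knockout M390, with the highest score and most reads of the 4, was the knockout nearest to the controls for Hmgcs1, Cyp51 and Nsdhl. Over the 7 controls alone, the r of the log2 level with the score was 0.38 for Hmgcs1, 0.32 for Cyp51, -0.39 for Nsdhl and 0.84 for Acat2. With the log2 library total the r values were 0.25, 0.43, 0.11 and -0.44. These r values are not adjusted for batch. Controls M379 of batch 1 and M386 of batch 2 had the highest scores and also the most Acat2, at 71.3 and 79.1 CPM. The batch 3 controls had 37.2 to 42.7 CPM of Acat2, so its r with the score cannot be told apart from a batch difference. How much of each difference comes from cell mixture or depth was not tested.

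**Figure D3:**
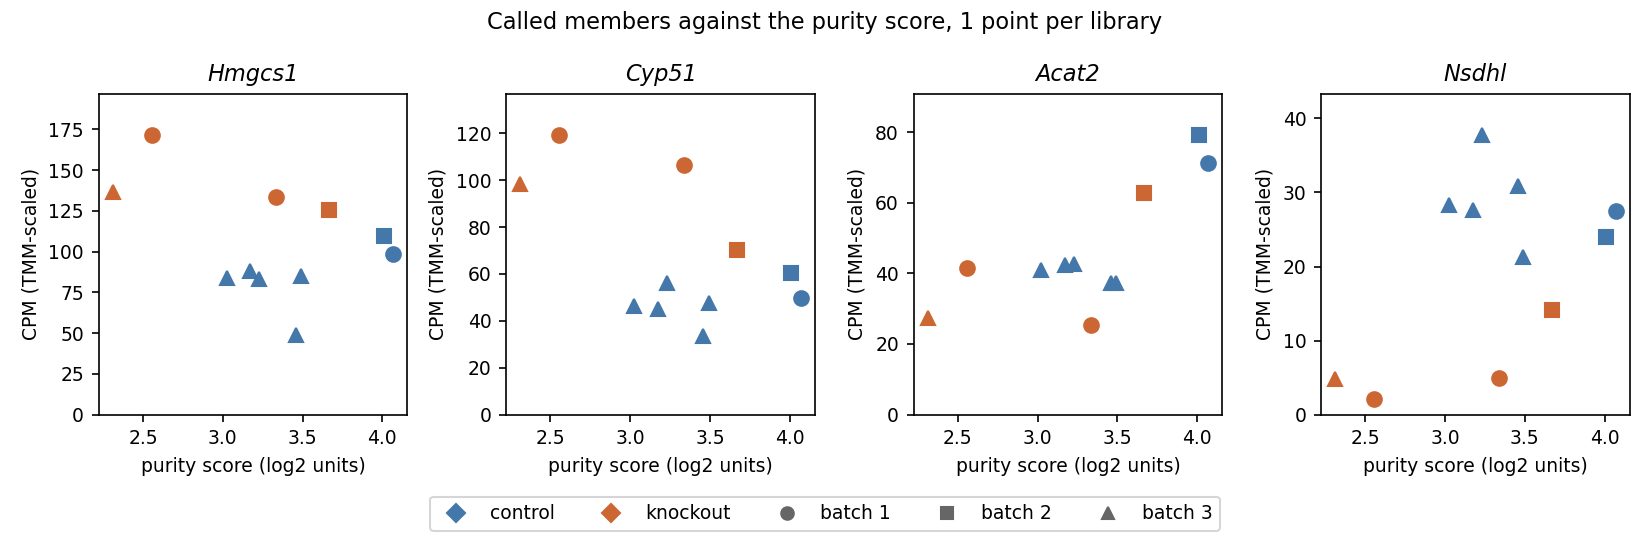
Level in CPM of the 4 called genes against the purity score in log2 units, with 1 point per library, coloured by group and shaped by batch. Knockouts F371 (3.34) and M390 (3.67) lie within the score range of the controls (3.02 to 4.07), and M374 (2.56) and M456 (2.31) lie below it.

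In the 7 controls alone the 8 genes varied by a coefficient of variation between 12.7% (Fdft1) and 38.4% (Idi1), with 12.9% for Sqle, 17.6% for Cyp51, 18.6% for Nsdhl, 22.0% for Hmgcs1, 25.4% for Lss and 34.7% for Acat2. Over these 7 libraries the log2 level of a gene correlated with the mean of the other members at a Pearson r of 0.72 for Idi1, 0.65 for Cyp51, 0.62 for Hmgcs1, 0.62 for Sqle, 0.51 for Acat2, 0.50 for Fdft1, 0.05 for Nsdhl and -0.36 for Lss. Nsdhl and Lss had the lowest values of the 8. The mean standardised level of the 8 genes was lowest in M476 (-0.85) and M479 (-0.75) and highest in M386 (0.48), and its r with the log2 library total was 0.10. Among 9860 other genes of at least 10 mean CPM, the closest patterns over the 7 controls were those of Itfg1 (r = 0.98), Bms1 (0.97) and Ciao3 (0.96). The 3 closest genes were picked by their r, which was not tested. All these correlations are descriptions over libraries that share batches.

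Of the other 13 enzymes of the route, 1 fell and 0 rose, 7.69% of them beside 24.4% of all tested genes, and their median log2 fold change was 0.10. The one that fell was Tm7sf2, a sterol reductase that acts between Cyp51 and Nsdhl. It had 7.84, 10.1, 43.7 and 13.3 CPM in F371, M374, M390 and M456 and 41.3 to 57.6 CPM in the controls. Knockout M390 lay inside the control range and the other 3 far below it. For Tm7sf2 the log2 difference was -1.75 ± 0.31 (SE; adjusted p = 0.00297 in edgeR), and without control M379 the call was lost at -1.17. Lbr, whose product carries out the same reduction, had 5.98 CPM ± 2.92 in the controls (SD, n = 7), and its log2 fold change of 0.63 ± 0.59 did not pass. Dhcr7, the last reductase, Mvk and Pmvk, the mevalonate kinases, had log2 fold changes of -0.59 ± 0.23, -0.43 ± 0.18 and -0.26 ± 0.14 and did not pass (edgeR adjusted p = 0.0733, 0.0928 and 0.19).

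**Figure D4:**
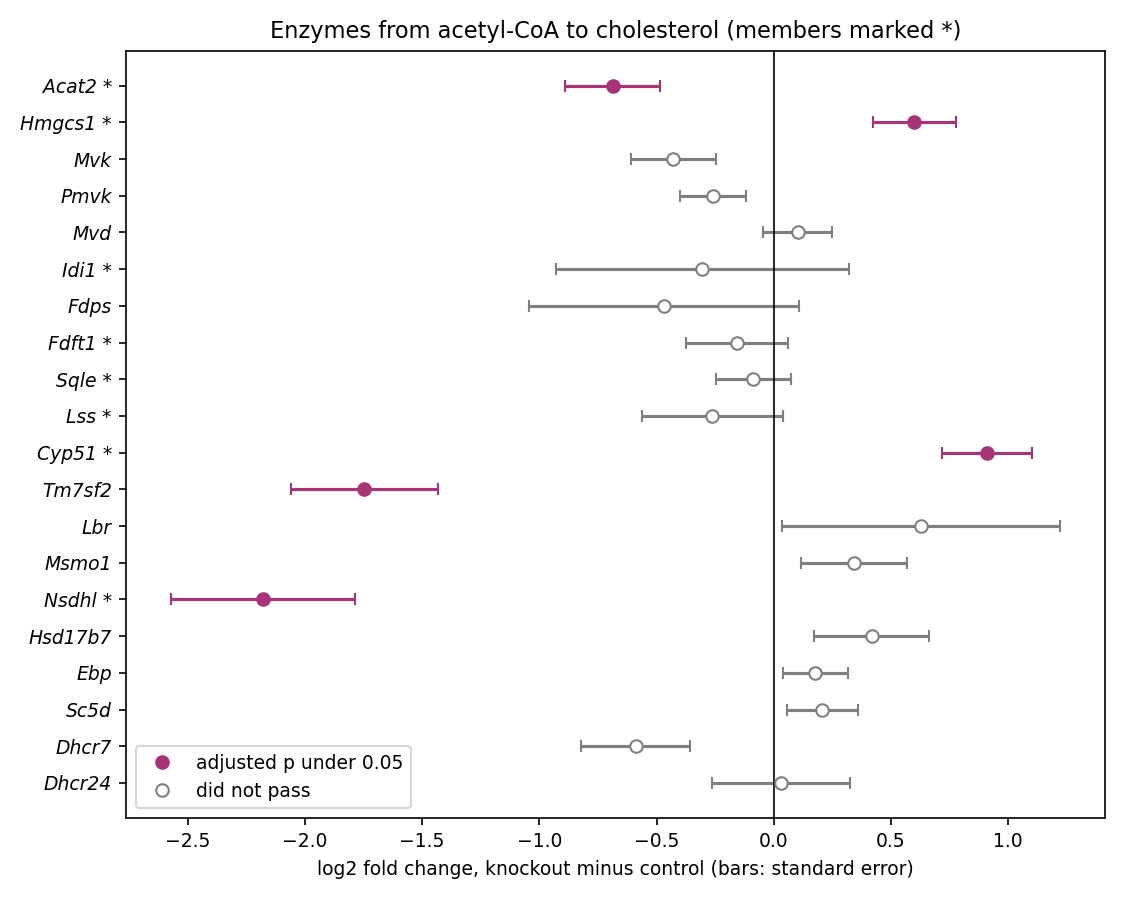
Log2 fold change of knockout against control, with bars of 1 standard error, for 20 enzymes in the order of the route, the 8 members marked with a star. Filled points passed the test over all genes: Hmgcs1 (0.60) and Cyp51 (0.91) on the right, Acat2 (-0.69), Tm7sf2 (-1.75) and Nsdhl (-2.18) on the left.

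The genes that sense sterol and activate SREBPs gave no call. Of 10 tested, 0 passed (edgeR), beside 24.4% of all tested genes. An unadjusted p under 0.05 was found for 2 of the 10, beside 5285 of all 13375 tested genes. DESeq2 called 1 of the 10, and their median log2 fold change was -0.14. Srebf2, which encodes the SREBP that acts most on this route, had 68.2, 52.9, 46.1 and 101 CPM in F371, M374, M390 and M456, and its controls split by batch, at 63.6 and 41.6 CPM in batches 1 and 2 and 90.0 to 139 CPM in batch 3. Its log2 fold change of -0.09 ± 0.17 did not pass, and the sign turned in 3 of 22 alternative analyses. The ubiquitin ligase gene Rnf139 was at -0.77 ± 0.31, and Scap, the sterol-sensing escort, and Mbtps1, a protease that cuts SREBPs, at -0.25 ± 0.12 and -0.31 ± 0.15, and none of these 3 passed (edgeR adjusted p = 0.0768, 0.14 and 0.15).

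Of 20 genes of cholesterol uptake, transport and turnover, 2 were higher and 6 lower. That is 40.0% of them, beside 24.4% of all tested genes, and the lists were not tested against each other. Their median log2 fold change was -0.06. Nr1h2, which encodes the sterol-activated liver X receptor beta, had 111 CPM ± 20.3 over the 7 controls and 26.3 CPM ± 16.9 over the 4 knockouts (SD), a log2 fold change of -2.08 ± 0.31 (edgeR adjusted p = 0.00206). Stard3, a carrier at late endosomes, fell by 1.67 ± 0.26 on the log2 scale. The neuronal cholesterol hydroxylase gene Cyp46a1, whose product opens the main way out of the brain for cholesterol, fell by 0.85 ± 0.17, and the exporter gene Abcg4 by 1.35 ± 0.29. All 4 had knockouts below all controls, as had 6 of the 20 genes and 6.77% of all tested genes. In 2 of the 20 all knockouts lay above all controls, as in 6.20% of all tested genes. Nr1h2, Stard3, Cyp46a1 and Abcg4 were named by their p from the same libraries, so the lack of overlap is no separate support. Of these 4, the calls of Cyp46a1 and Abcg4 were lost without M379 or without M456. Those of Nr1h2 and Stard3 passed with any 1 library left out. Without M379, and also without M456, 2 of the 20 passed. The remaining 4 calls, named after their values were seen, were the sterol carrier gene Stard4 (1.02 ± 0.26) and the cholesterol acyltransferase gene Soat1 (0.68 ± 0.18), both higher, and the lysosomal lipase gene Lipa (-0.81 ± 0.26) and the lipoprotein receptor gene Vldlr (-0.34 ± 0.11), both lower and called in 9 and 11 of 22 alternative analyses.

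**Figure D5:**
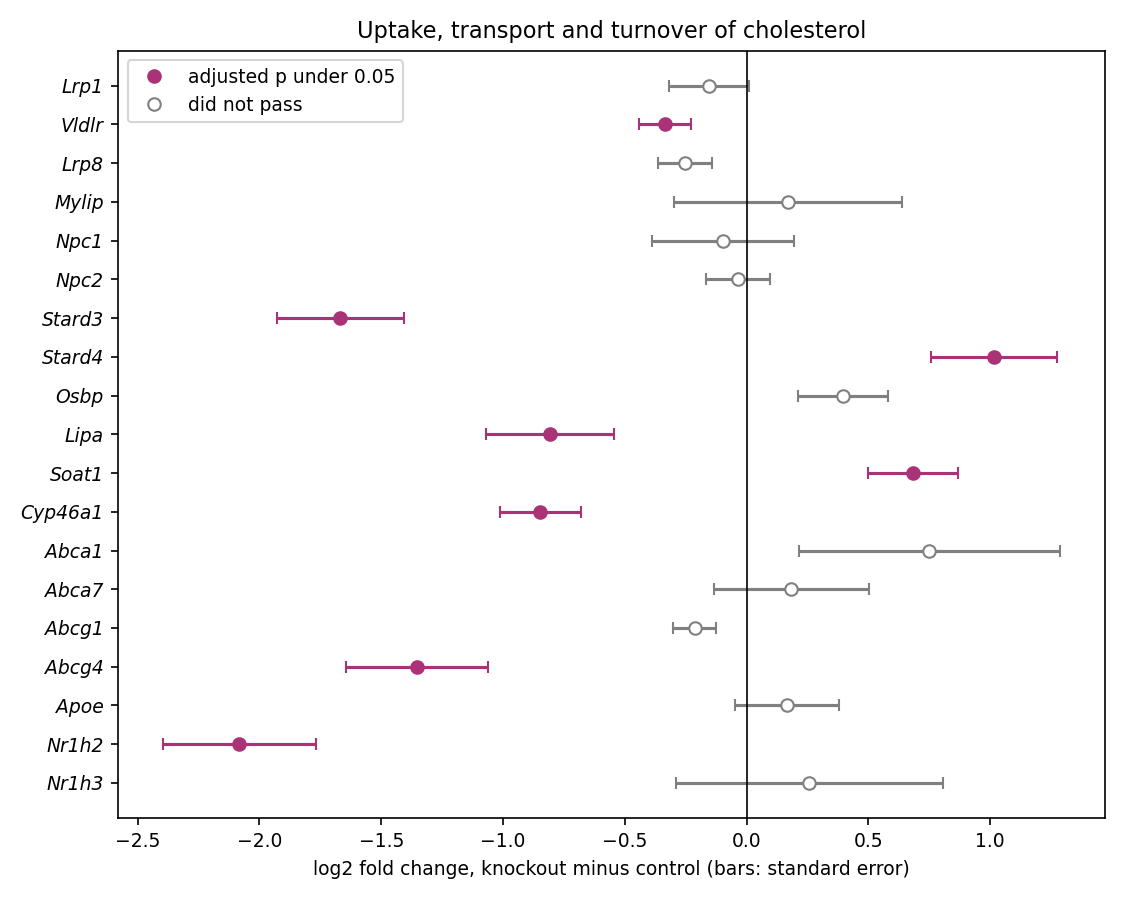
Log2 fold change of knockout against control, with bars of 1 standard error, for 19 genes of cholesterol uptake, transport and turnover. Filled points passed the test: Stard4 (1.02) and Soat1 (0.68) on the right, and Nr1h2 (-2.08), Stard3 (-1.67), Abcg4 (-1.35), Cyp46a1 (-0.85), Lipa (-0.81) and Vldlr (-0.34) on the left.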

How the data were processed

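Ribosome-bound RNA of 11 mouse cerebella was sequenced, 1 library per animal. The deposited files hold read counts per gene, made with STAR on GRCm38 and HTSeq per the submitters' processing notes; versions and the strand setting: not given in the sources used here. Each file lists 55421 genes and 5 summary lines, which stayed out of totals and tests (reads outside genes were 6.11% to 12.0%, reads aligned to several places 7.91% to 10.6% and ambiguous reads 3.82% to 4.52% of a library). No libraries were copies (smallest chi-square per degree of freedom between any pair 2.40). The 8 members and all lists were chosen with earlier results of these data known.

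Counts were tested in edgeR 4.0.16 (R 4.3.3) with filterByExpr, TMM scaling and a quasi-likelihood model of batch and genotype with 7 residual degrees of freedom. P-values are two-sided, adjusted by Benjamini-Hochberg over 13375 genes, threshold 0.05. A standard error is the fold change over the root of its F; 95% intervals use the moderated degrees of freedom. CPM are TMM-scaled and group means are not adjusted for batch; logarithms of CPM had a prior count of 2, and ratios inside a batch 0.5 CPM added. No batch was tested alone. Gene lengths were not used, so levels of different genes are not ranked. The model was tested on simulated counts. Named genes were the 8 members, Srebf2, up to 4 genes per list with the smallest p, and the 3 genes closest in pattern; some other listed genes enter the counts and are not reported here by name. DESeq2 1.42.0 and limma 3.58.1 (voom) were among the alternatives. Reads carry no molecular identifiers, so intervals cover the spread between libraries and counting error only.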

Additional observations from a re-analysis of the deposited data

Results flagged for a closer look

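Among 16 sets of control or knockout values of the 8 genes, 1 held a library that stood apart: Hmgcs1 in control M476, at 48.6 CPM, below the next lowest control by 0.569 of the control range, just past Dixon's limit for 7 samples. Chance gives such a library in about 1 of 20 sets. M476 also had the lowest control values of Cyp51 (33.7 CPM) and Idi1 (0.698 CPM), the fewest reads in genes of the controls (4.09 M), the largest scaling factor (1.06) and the largest share of ambiguous reads (4.52%). Without it the log2 fold change of Hmgcs1 was 0.57 (edgeR adjusted p = 0.00557), and the part of these library properties in its low value was not tested.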

How the results depend on the processing

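Across 22 alternatives, 11 of which left out 1 library each, Hmgcs1, Cyp51, Nsdhl and Acat2 kept their direction, and passed in 18, 18, 19 and 16. Their log2 fold changes ran from 0.08 to 0.76, 0.41 to 1.17, -2.75 to -1.06 and -0.88 to -0.35. Sqle, Fdft1, Idi1 and Lss passed in 0. With the purity score and, separately, the library total as a covariate, 0 genes passed over all genes, the 8 members, the other enzymes, the uptake list, the isoprenoid list and the fatty acid list. With no batch term 3 other enzymes and 1 SREBP control gene passed, by DESeq2 1 SREBP control gene and without batch 2 2 of them. In the isoprenoid list 1 gene passed with DESeq2 size factors, with no filter, with at least 1 CPM in 4 libraries and in animals tagged M.

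With 1 library left out, 335 (without M456) to 4649 (without M390) genes passed, and 522 without M379. Without M379, M456, M390 or M386 a batch is left with 1 group. The counts ran from 0 to 4 for the 8 members, 0 to 2 for the other enzymes, 0 to 2 for SREBP control, 2 to 9 for uptake and turnover, 0 to 3 for the isoprenoid list and 1 to 7 for the fatty acid list. Signs turned with the purity score for Idi1 (0.40), Srebf2 (0.071) and Fads1 (-0.12), and with the library total for Idi1 (0.0075) and Srebf2 (0.23). With 1 library left out they ran from -0.227 to 0.0017 (without M386) for Sqle, -0.361 to 0.083 (without M379) for Fdft1, -0.595 to 0.23 (without M379) for Idi1 and -0.143 to 0.019 (without M456) for Srebf2. The cause was not tested. With 2 CPM added, the within-batch ratios of Nsdhl in batches 1 and 3 were -2.42 and -2.19. No paired analysis was possible because the animals carry no shared numbers. Idi1 is limited by its low counts of 2 to 20 reads per library, and why they are low was not tested.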

Other observations

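Genes that feed and share acetyl-CoA and the fatty acid route, also under SREBPs, moved in both directions. Of 11 tested, 2 rose and 3 fell (45.5%, beside 24.4% of all tested genes), with a median log2 fold change of -0.03; without M379, and also without M456, 1 passed. Acsl3, which activates fatty acids, rose by 0.70 ± 0.14 (104 CPM ± 20.9 in controls, 184 CPM ± 16.3 in knockouts, SD, n = 7 and 4). The desaturase gene Fads1, named after its values were seen, was at 0.82 ± 0.24 (edgeR adjusted p = 0.0258), with a ratio of -0.12 in batch 2. Its call was lost with no batch term (0.51, edgeR adjusted p = 0.25), with the library total (0.27), without M379 (0.86) and without M456 (0.38), and its sign turned with the purity score (-0.12). The fatty acid synthase gene Fasn fell by 0.67 ± 0.16, the elongase gene Elovl6 by 0.45 ± 0.10 and the acetyl-CoA synthetase gene Acss2 by 0.89 ± 0.22 (edgeR adjusted p = 0.00950, 0.00714 and 0.00950).

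In the branch that leaves the route for dolichol, quinones and protein prenylation, 1 of 9 genes rose and 1 fell (22.2%, beside 24.4% of all tested genes); 1 passed without M379 and 0 without M456 (edgeR, 2 at an unadjusted p under 0.05). Nus1, a subunit of the dolichol-making transferase, rose by 0.68 ± 0.14, from 136 CPM ± 30.8 to 234 CPM ± 9.78 (SD, n = 7 and 4). All knockouts lay above all controls for Nus1, 1 of the 9 genes, and for 6.20% of all tested genes. Ggps1, which makes geranylgeranyl diphosphate, fell by 0.29 ± 0.10 and passed in 4 of 22 alternatives. Fnta, a prenyltransferase subunit gene, and Pdss1, of ubiquinone side chain synthesis, were at 0.27 ± 0.11 and -2.04 ± 0.87 and did not pass (edgeR adjusted p = 0.0819 and 0.0977).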
